A study of Rattus norvegicus with 9 samples.

Results

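The comparison of dorsal root ganglia (DRG) from rats with a spinal cord injury (SCI) and from naive rats at 30 days rests on 6 of the 9 RNA-seq libraries of the series, 3 SCI and 3 naive. Its members are all genes of the count table that passed a low-count filter by group, which were 16627 of 30446. Every library came from the ganglia of both sides between the lowest thoracic and the sixth lumbar level of male Sprague-Dawley rats, and the 30-day label is carried by the naive group as well. The naive label names no operation and no injury, whereas a spinal injury entails an operation, so that the contrast holds both. The labels give neither the level nor the kind of the injury. The remaining 3 libraries came from sham-operated rats, entered the same fit and are given beside the results for scale. Whether each library stands for 1 animal or several is not stated, and the p-values therefore speak only of how these libraries vary.

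A dorsal root ganglion holds the cell bodies of sensory neurons, each wrapped by satellite glia, together with myelinating and nonmyelinating Schwann cells, resident macrophages, vessels and connective tissue. The neurons of the lumbar ganglia send a peripheral branch to the hind limb and viscera and a central branch into the cord, and they report touch, limb position, temperature, itch and pain. When the peripheral branch is cut, these neurons switch on a well-known set of injury genes, among them transcription factors such as Atf3 and neuropeptides such as Vip and Gal.

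Naive libraries held 27534798 to 31816438 counts and SCI libraries 20168733 to 32060538. Levels are given in CPM, counts scaled to a common library size. In log2 CPM, the leading principal component (59.3% of the variance) parted naive from the rest, at scores of -43.55 to -41.56 against 14.16 to 25.75 for the sham and SCI libraries. No label gives a batch for these groups, so a batch of the naive libraries and the group itself cannot be told apart, and no within-batch value can be had. The labelled tissue was borne out by its defining genes: Avil, an actin-binding protein of sensory neurons, stood at 939 ± 50.05 CPM in naive and 943 ± 61.1 in SCI (mean ± SD, n = 3 in each group here and below), and Isl1, a transcription factor of the same cells, at 61.8 ± 0.414 and 57.0 ± 1.11. In whole ganglia, fewer cells of a type and less RNA per cell cannot be told apart. The library kit does not mark strand, so reads of a gene and of an overlapping antisense gene are also not separable.

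The 2 groups differed across much of the transcriptome, mostly by small amounts. The edgeR quasi-likelihood test called 8059 genes at an adjusted p under 0.05, which is 48.5% of those tested: 3968 were higher in SCI (23.9%) and 4091 lower (24.6%). Among called genes the median size of the log2 change was 0.476, with quartiles of 0.335 and 0.695, and the median log2 change of all tested genes was 0.0115. Only 757 called genes changed at least 2-fold, of which 185 were higher (1.11%) and 572 lower (3.44%). For 10657 genes (64.1%) all SCI libraries lay on 1 side of all naive libraries. For SCI against sham the same fit called 0 genes (0%), with 526 at an unadjusted p under 0.05, while DESeq2 called 9. All counts of members below are to be read against these shares.

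**Figure D1:**
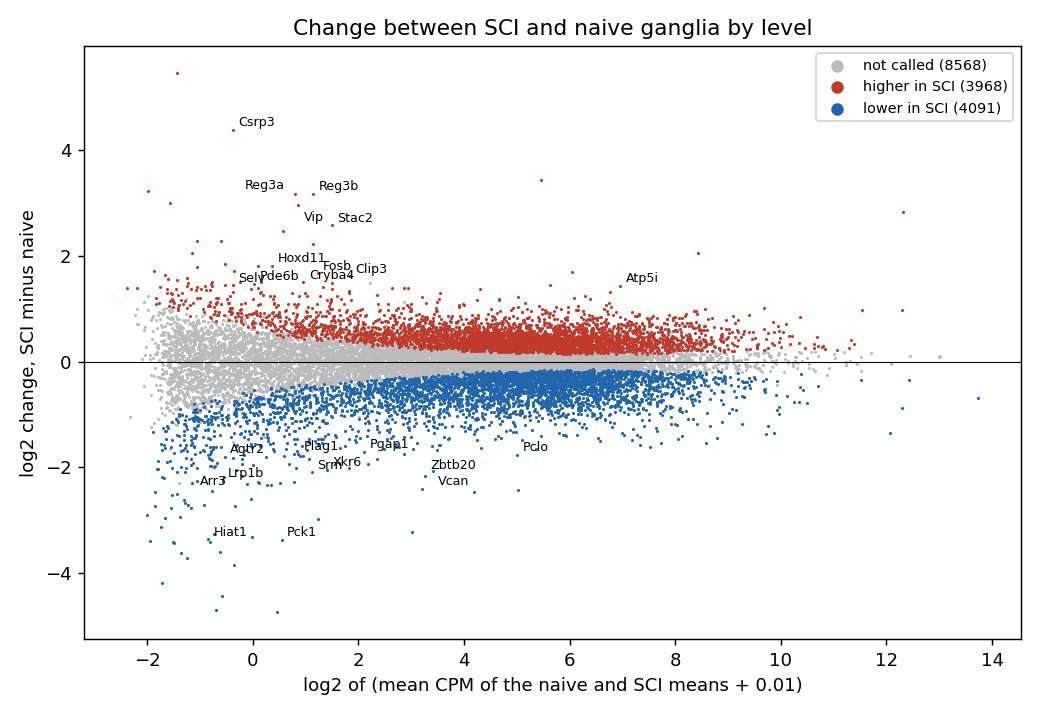
Log2 change between SCI and naive ganglia (y axis) against the log2 of the mean level in CPM (x axis), 1 point per tested gene. Red points are the 3968 genes called higher, blue points the 4091 called lower and grey points those not called. The labelled genes are the 12 with the largest change in each direction under the naming rule, and most large changes lie at the low end of the level axis.

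Among the 12 named genes with the largest rise were Vip, Stac2, Reg3b, Reg3a and Fosb, which encode secreted factors, a channel adaptor and a transcription factor and had low levels in naive ganglia. Vip, a neuropeptide, stood at 0.543, 0.472 and 0.225 CPM in the naive libraries and at 3.68, 3.41 and 2.55 in SCI, a 7.82-fold rise (log2 change 2.97 ± 0.34 SE, adjusted p = 1.61e-05 by edgeR). The sham libraries held 0.845, 1.78 and 0.645 CPM of Vip, between both groups and without overlap with SCI. Stac2, an adaptor that binds voltage-gated calcium channels, followed the same order, at 0.832, 0.881 and 0.707 CPM in naive, 2.61, 3.15 and 3.17 in sham and 5.25, 5.44 and 3.82 in SCI. Its log2 change between SCI and naive was 2.58 (SE 0.19, edgeR adjusted p = 9.28e-07). For both genes every SCI library lay above every sham library, and neither was called between SCI and sham. The share of all tested genes whose SCI and sham libraries did not overlap was not counted. Such a separation, here and for genes below, therefore has no background beside it.

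Reg3b and Reg3a encode secreted lectins known from injured sensory neurons. Reg3b stood at 0.398, 0.472 and 0.386 CPM in naive and at 1.24, 1.98 and 8.69 in SCI, with a log2 change of 3.18 (SE 0.67, edgeR adjusted p = 0.00162). A single library carried much of that value, and without SCI 3 the log2 change was 1.88. Reg3a had the same shape, with 1.11, 2.17 and 6.14 CPM in SCI against 0.225 to 0.507 in naive (log2 change 3.17 ± 0.60 SE). SCI 3 was also highest for Fosb, a member of the Fos family of transcription factors, at 5.78 CPM beside 2.10 and 2.87, against 1.01 to 1.19 in naive (log2 change 1.68 ± 0.33 SE). Without SCI 3 the log2 changes of Reg3a and Fosb were 2.23 and 1.15. For these 3 genes, too, the SCI libraries lay above the sham libraries, but for Reg3b and Reg3a only by little. Sham 1 held 1.21 CPM of Reg3b and 1.065 of Reg3a, beside 1.24 and 1.11 in SCI 1. For Fosb the highest sham library held 1.59 CPM.

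The other named genes with the largest rises did not separate SCI from sham, Pde6b excepted. Csrp3, a protein of the muscle Z-disc, had the largest log2 change (4.39, SE 0.53), from naive values of 0.0362, 0.0945 and 0.0643 CPM, so that its size rests on very few naive counts, and it stood at 1.85, 1.53 and 1.001 in SCI. Hoxd11, a homeobox factor of the caudal body axis, stood at 0.253 to 0.913 CPM in naive, 1.53 to 2.37 in SCI and 0.595 to 2.90 in sham. Atp5i, a small subunit of ATP synthase, was the named gene with the highest level, at 58.2, 71.8 and 70 CPM in naive and 176, 183 and 185 in SCI (log2 change 1.44 ± 0.12 SE, adjusted p = 1.45e-06 by edgeR). Cryba4, Selv and Pde6b had log2 changes of 1.51, 1.45 and 1.48 at levels under 4 CPM in every library. A row under the symbol Clip3 rose by 1.62, but a more abundant identifier with the same symbol stood at 261 ± 11.9 CPM in naive and 275 ± 22.2 in SCI and was not called, so the rise of Clip3 is uncertain.

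The 12 genes with the largest named falls had SCI libraries that overlapped those of sham. Pclo, a giant scaffold of the presynaptic active zone, stood at 47.8, 54.9 and 47.0 CPM in naive and 16.1, 14.8 and 12.9 in SCI, a 3.40-fold lower level (log2 change -1.77, edgeR adjusted p = 1.71e-07). Vcan, a large chondroitin sulfate proteoglycan, stood at 18.9, 16.8 and 15.9 CPM in naive and 4.98, 3.41 and 3.73 in SCI, with a log2 change of -2.06 (SE 0.16). Zbtb20, a transcriptional repressor, fell by 2.17 on the log2 scale from 15.6 ± 1.66 to 3.46 ± 0.600 CPM. Srm, the spermidine synthase, fell by 2.09 from 3.51 ± 0.228 to 0.823 ± 0.115 CPM. The naming rule required naive and SCI libraries that did not overlap, so the gap between them for these genes follows from their selection.

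Agtr2, the type II angiotensin receptor, stood at 0.661 to 1.45 CPM in naive and 0.182 to 0.402 in SCI (log2 change -1.79 ± 0.42 SE). Xkr6, Plag1, Pgap1 and Arr3 had log2 changes of -2.04, -1.74, -1.70 and -2.06. Hiat1 and Lrp1b are each listed under 2 identifiers with falls of different size, among which reads may be split, so that their sizes are uncertain. Pck1, an enzyme of gluconeogenesis that fat cells also express, had a log2 change of -3.36 (edgeR adjusted p = 0.0181), but this rests on naive 3 alone, at 7.07 CPM beside 0.398 and 0.472, and without that library the gene did not pass the low-count filter. Its call was also lost without SCI 1 (adjusted p = 0.0739) and without SCI 3 (adjusted p = 0.0564). The summed level of the adipocyte list was 76.7 CPM in naive 3 and 57.3 and 53.1 in naive 1 and 2, and its part in this result was not tested.

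Neuropeptides and the granins packed with them lay higher in SCI. Of 20 tested members, 10 rose and 2 fell, with a median log2 change of 0.384. Gal, the neuropeptide galanin, stood at 5.90, 6.42 and 5.65 CPM in naive and 11.2, 12.2 and 9.69 in SCI (log2 change 0.88 ± 0.13 SE, adjusted p = 0.000104 by edgeR). Chga, a granin of dense-core vesicles, rose from 140 ± 7.66 to 223 ± 7.81 CPM, and Nmb, the precursor of neuromedin B found in itch and pain neurons, from 49.5 ± 2.10 to 72.4 ± 0.930. Penk, the enkephalin precursor, and Sst, somatostatin, rose by 0.71 and 0.59 on the log2 scale. Sham libraries overlapped those of SCI for Gal, Chga, Penk and Sst, and lay above them for Nmb.

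Less abundant members of the list had weaker support. Nts (neurotensin), Nppb (B-type natriuretic peptide) and Nmu (neuromedin U) had log2 changes of 0.92, 0.92 and 0.74 at levels under 3 CPM. The call of Nts was lost without SCI 2 (adjusted p = 0.0549), that of Nppb without naive 2 (0.0763) or SCI 3 (0.0928), and that of Nmu without naive 1, naive 3, SCI 1 or SCI 3 (0.0780 to 0.105). The main peptides of pain fibres had no call: Calca, which encodes CGRP, stood at 1027 ± 33.9 CPM in naive and 1143 ± 100 in SCI, Tac1, which encodes substance P, at 282 ± 5.79 and 296 ± 33.8, and Calcb at 158 ± 10.02 and 158 ± 18.1. The 2 members that fell were Cartpt (log2 change -0.63 ± 0.14 SE) and Adcyap1, the precursor of PACAP (-0.36, SE 0.10).

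Several neuropeptide genes are textbook targets of the cAMP response element, TGACGTCA, bound by CREB, and of the AP-1 site, TGACTCA, bound by Fos and Jun dimers. The 250 bases before the annotated start of the gene were available in the RefSeq promoter table (assembly GRCr8) for 8 of the 10 neuropeptide genes that rose. None of the 8 held the full TGACGTCA, 4 held its 5-base core TGACG on either strand, and 2 held TGACTCA on either strand. The windows of those 4 genes are printed 5′ to 3′ on the strand of the gene, with capitals marking TGACG (or CGTCA) and TGACTCA (or TGAGTCA). They lie at chr1:44470230-44470479 on the plus strand for Vip, chr7:39460889-39461138 on the minus strand for Nts, chr1:210084573-210084822 on the minus strand for Gal and chr14:32198693-32198942 on the plus strand for Nmu.
Vip: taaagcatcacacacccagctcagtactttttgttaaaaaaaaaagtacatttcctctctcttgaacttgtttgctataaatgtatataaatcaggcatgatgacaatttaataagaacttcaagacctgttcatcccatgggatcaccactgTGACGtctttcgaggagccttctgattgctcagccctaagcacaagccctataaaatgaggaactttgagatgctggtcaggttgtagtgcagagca
Nts: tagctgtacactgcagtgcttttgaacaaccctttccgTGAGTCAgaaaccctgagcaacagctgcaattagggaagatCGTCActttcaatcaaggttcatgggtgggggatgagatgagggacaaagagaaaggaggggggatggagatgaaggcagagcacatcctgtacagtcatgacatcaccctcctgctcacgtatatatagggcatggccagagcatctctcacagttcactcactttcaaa
Gal: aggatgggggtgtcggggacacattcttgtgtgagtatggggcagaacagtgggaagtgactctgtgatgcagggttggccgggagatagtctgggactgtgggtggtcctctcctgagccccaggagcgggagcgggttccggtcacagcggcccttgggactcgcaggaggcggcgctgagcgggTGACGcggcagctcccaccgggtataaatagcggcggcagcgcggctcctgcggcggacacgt
Nmu: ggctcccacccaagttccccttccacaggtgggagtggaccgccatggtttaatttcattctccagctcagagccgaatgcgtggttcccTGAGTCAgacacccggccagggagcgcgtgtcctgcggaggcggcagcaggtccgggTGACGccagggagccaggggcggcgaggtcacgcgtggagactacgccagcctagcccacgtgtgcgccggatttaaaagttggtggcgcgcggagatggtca
The same letters were counted in all windows. Among the 10874 tested protein-coding genes with a window in the table, 26.6% held TGACG, 28.3% of genes that rose and 27.9% of genes that fell. TGACTCA was in 3.19% of all windows, 3.26% of those of genes that rose and 2.66% of those of genes that fell, and TGACGTCA in 2.75%, 3.12% and 2.48%. A match describes the letters of the window and no binding was measured. Each window ends at the annotated start, so an element beyond either end was not counted. The absence of TGACGTCA therefore holds for these windows only, and not for the genes.

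Genes of the axon injury response rose more often than they fell, 12 against 4 of 26 tested members, with a median log2 change of 0.220. The list was chosen with these data known and its members overlap the neuropeptides. Atf3, the transcription factor most used to mark axotomised neurons, stood at 14.8, 15.4 and 15.1 CPM in naive and 22.0, 21.7 and 20.5 in SCI (log2 change 0.50 ± 0.12 SE, adjusted p = 0.00334 by edgeR). The sham libraries spanned both groups, at 14.7, 18.9 and 22.4 CPM. Sox11, a growth-linked factor, and Gap43, a growth cone protein, rose by 0.64 and 0.36, and Stmn4, a stathmin that loosens microtubules, by 0.73 with sham libraries at 29.3 ± 2.40 CPM between 20.1 ± 1.34 in naive and 33.4 ± 1.76 in SCI. Jun, a partner of Atf3, had a log2 change of 0.14 (SE 0.06) and was not called. The 4 that fell were Lifr, the receptor of leukemia inhibitory factor (162 ± 11.1 to 85.7 ± 10.4 CPM), Cacna2d1, Flrt3 and Basp1.

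Of 24 immediate early genes 6 rose (25%, near the 23.9% of all tested genes) and 3 fell (12.5%, against 24.6%). Fos, induced in neurons within minutes of activity, stood at 6.91, 5.86 and 7.84 CPM in naive and 11.2, 11.8 and 12.6 in SCI, with sham libraries at 5.55, 6.96 and 8.63, overlapping naive. Its log2 change between SCI and naive was 0.78 (SE 0.15, edgeR adjusted p = 0.00079). Egr1, of the same kind, stood at 16.1, 16.3 and 18.2 CPM in naive, 18.9, 24.2 and 27.1 in sham and 25.5, 29.8 and 32.4 in SCI. Klf6, Nr4a2 and Egr2 had log2 changes of -0.79, -0.60 and -0.56, so that the family did not move as a whole.

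**Figure D2:**
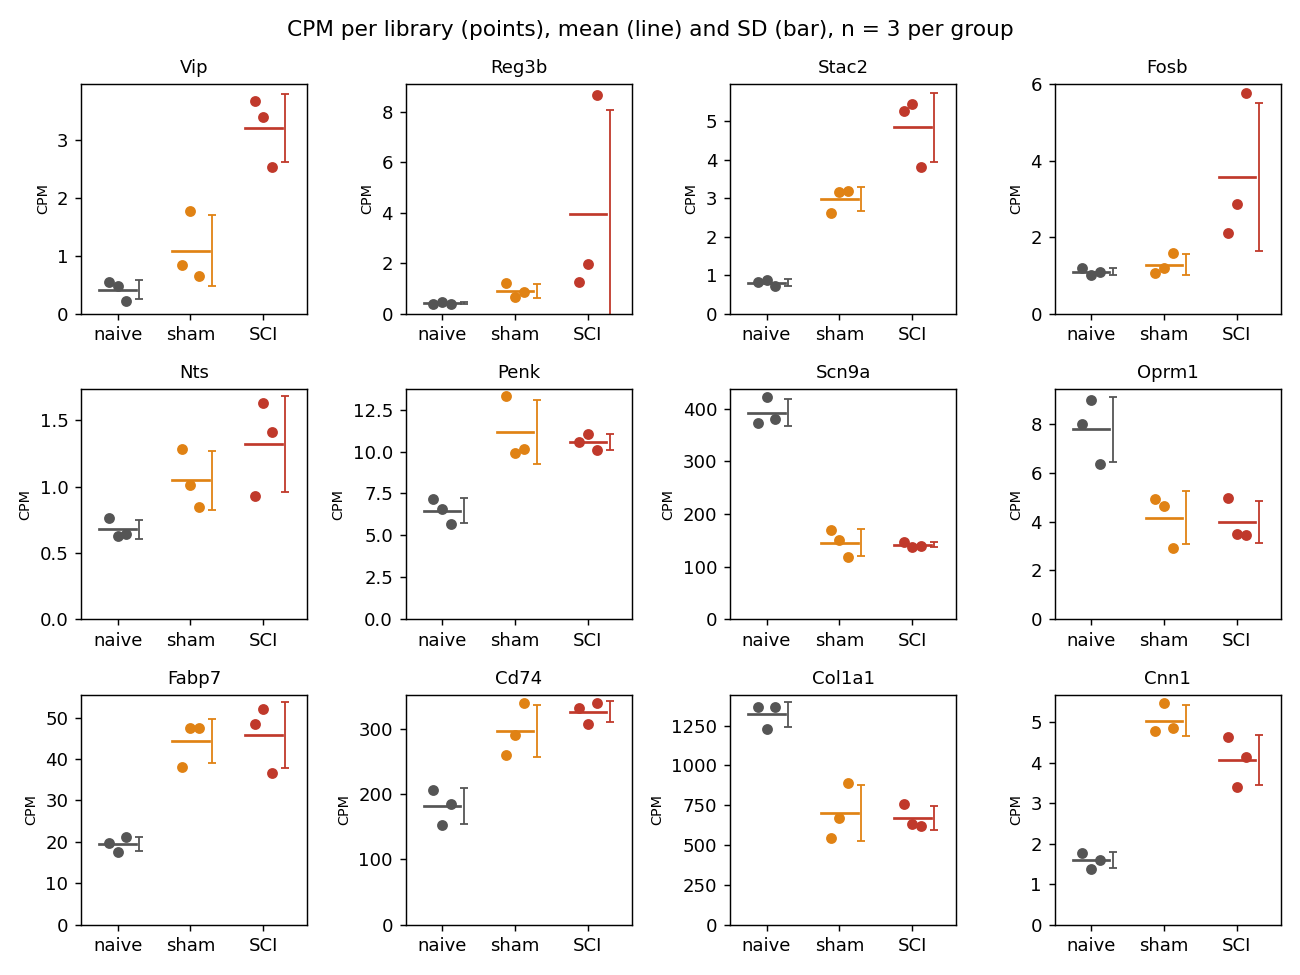
CPM of 12 genes in each library (points), with group means (lines) and SD (bars), n = 3 per group, in naive, sham and SCI ganglia. Vip, Reg3b, Stac2 and Fosb are higher in SCI than in every sham library, Reg3b by little (1.24 CPM in SCI 1 against 1.21 in sham 1). For Scn9a, Oprm1, Fabp7, Cd74 and Col1a1 the sham points lie among those of SCI and apart from naive.

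Voltage-gated sodium channels carry the action potential of sensory neurons. They are built from a large pore-forming alpha subunit and small beta subunits, and these roles were divided after the values were seen. Of 10 alpha subunits, 8 fell and 0 rose, with a median log2 change of -0.753. Scn9a, the channel that sets the threshold of pain fibres, stood at 374, 422 and 381 CPM in naive and 148, 137 and 140 in SCI, 2.77-fold lower (log2 change -1.47 ± 0.11 SE, adjusted p = 8.74e-07 by edgeR). Scn11a and Scn10a, the channels that resist tetrodotoxin, fell from 515 ± 25.7 to 262 ± 23.9 CPM and from 659 ± 28.4 to 452 ± 31.3. Scn7a, a channel also found in nonmyelinating Schwann cells, fell from 850 ± 18.4 to 375 ± 18.2 CPM and Scn2a from 13.1 ± 0.429 to 5.87 ± 0.415. No naive library of these 5 genes overlapped any SCI library, which also held for 64.1% of all tested genes.

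Among the small subunits, Scn2b stood at 11.4, 12.8 and 12.5 CPM in naive and 16.7, 16.8 and 15.9 in SCI (log2 change 0.43 ± 0.11 SE, adjusted p = 0.00747 by edgeR). The sham libraries of Scn2b, at 17.3, 15.3 and 11.9 CPM, overlapped both groups. Scn3b and Scn4b had log2 changes of 0.01 and 0.13 and were not called. None of the sodium channel genes named here was called between SCI and sham.

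Calcium channels were divided by subunit. Of 8 pore subunits 6 fell and 0 rose, with a median log2 change of -0.582. Cacna1b, the N-type channel that drives transmitter release from pain fibres, stood at 138, 148 and 143 CPM in naive and 82.6, 82.7 and 73.5 in SCI (log2 change -0.84 ± 0.11 SE). Cacna1c, an L-type channel, fell from 47.1 ± 2.09 to 27.3 ± 2.09 CPM. Cacna2d1, the alpha2delta subunit that gabapentin binds and that rises after nerve injury in other models, fell from 57.3 ± 5.02 to 31.6 ± 3.78 CPM (log2 change -0.85 ± 0.14 SE, adjusted p = 0.000346 by edgeR). Cacnb3 and Cacnb1, cytoplasmic beta subunits, rose by 0.34 and 0.32, Cacnb4 fell by 0.65, and Stac rose with Stac2, from 33.6 ± 2.81 to 51.5 ± 6.42 CPM.

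Potassium channels, which damp firing, were more mixed. Of 28 pore subunits, 3 rose and 11 fell, and of 9 accessory or silent subunits, 2 rose and 1 fell. Kcnt2, a sodium-activated channel, and Kcnd3, an A-type channel, had log2 changes of -0.95 and -0.85. Kcnn3 and Kcnn1, calcium-activated channels of small conductance, rose from 4.95 ± 0.246 to 8.12 ± 0.837 CPM and from 18.3 ± 1.71 to 25.3 ± 1.94. SCI and naive libraries did not overlap for these 4 genes, nor for 64.1% of all tested genes.

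Among 28 transduction and pacemaker channels, 3 rose and 6 fell, below the background shares. Piezo2, the channel of light touch and limb position, stood at 333, 367 and 354 CPM in naive and 196, 187 and 181 in SCI (log2 change -0.90 ± 0.09 SE, adjusted p = 6.02e-06 by edgeR). Hcn2, a pacemaker channel of pain fibres, rose from 127 ± 4.42 to 170 ± 7.42 CPM. Trpv1, the heat and capsaicin receptor, stood at 188 ± 8.47 and 168 ± 12.6 CPM, Trpa1 at 53.9 ± 1.13 and 44.5 ± 5.76, and P2rx3, the ATP receptor of nonpeptidergic fibres, at 538 ± 39.7 and 551 ± 38.4, none of them called.

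**Figure D3:**
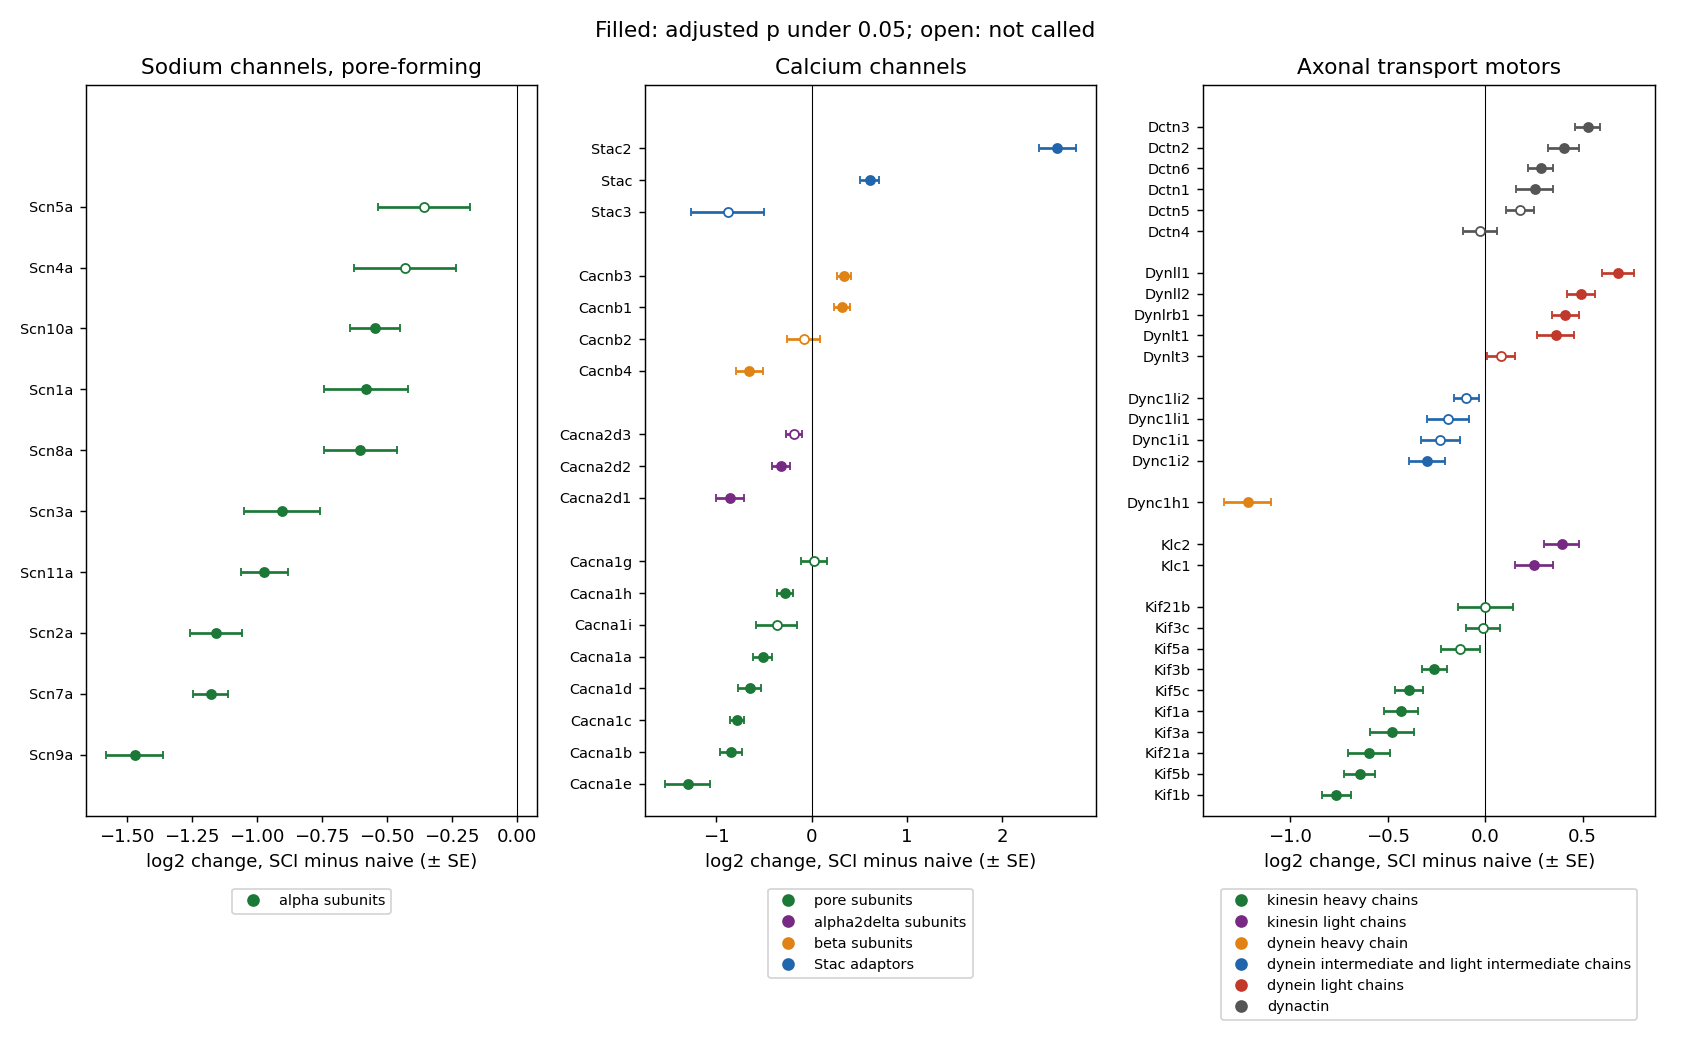
Log2 change between SCI and naive ganglia with its standard error (x axis) for pore-forming sodium channel subunits and members of 2 other families, coloured by the role of the subunit. Filled points passed an adjusted p of 0.05. Pore-forming sodium and calcium subunits and motor heavy chains lie mostly to the left of 0, and dynein light chains and dynactin mostly to the right.

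Opioid genes were divided between receptors and ligands. Of 4 opioid receptors 3 fell, and of 3 opioid peptide precursors 2 rose. Oprm1, the morphine receptor, stood at 7.998, 9.004 and 6.36 CPM in naive and 4.98, 3.51 and 3.46 in SCI (log2 change -0.94 ± 0.20 SE, adjusted p = 0.00161 by edgeR). Oprk1, the dynorphin receptor, fell by 0.60 and Oprl1, the nociceptin receptor, had a log2 change of -0.34, the call of Oprl1 being lost without SCI 3 (adjusted p = 0.0532). Beside Penk, Pnoc, the nociceptin precursor, rose by 0.60, a call lost without naive 1 (0.0611) or SCI 3 (0.0718). Cnr1, the main cannabinoid receptor of neurons, stood at 45.1, 43.0 and 43.9 CPM in naive and 23.0, 21.4 and 21.7 in SCI (log2 change -0.99 ± 0.08 SE), and the sham libraries, at 19.1 to 24.5 CPM, surrounded those of SCI. Cnr2, the other cannabinoid receptor, had a log2 change of 0.52 and overlapping libraries. Its call was lost without any naive library, sham 2, SCI 1 or SCI 3 (adjusted p = 0.0516 to 0.182).

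GABA and glutamate receptor subunits fell in 10 of 25 cases and rose in 1, Gabra5, whose call was lost without naive 2 (adjusted p = 0.0750), naive 3 (0.0611) or SCI 1 (0.0593). Gabra2, a subunit of the GABA-A receptor, fell from 67.8 ± 5.23 to 40.3 ± 1.37 CPM, and Gria2 and Gria3, AMPA receptor subunits, from 37.0 ± 2.59 to 20.5 ± 2.17 and from 14.6 ± 1.44 to 9.07 ± 0.314. The chloride gradient sets whether GABA excites or inhibits these neurons. Slc12a2, the cotransporter that loads sensory neurons with chloride, stood at 293, 274 and 278 CPM in naive and 123, 116 and 116 in SCI (log2 change -1.25 ± 0.07 SE, adjusted p = 7.98e-08 by edgeR). Wnk1, a kinase that switches such cotransporters, fell from 241 ± 4.39 to 121 ± 7.58 CPM. In all, 8 of 17 chloride transport genes fell and 1 rose, Slc4a3.

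Signals through cAMP and neurotrophic factors were divided. Of 35 cAMP genes, 4 rose (11.4%, against 23.9% of all tested genes) and 9 fell (25.7%, near the 24.6% of all). Gnai2, an inhibitory G protein subunit, rose from 437 ± 12.5 to 642 ± 15.9 CPM, while Pde7a, a phosphodiesterase, and Rapgef2, an exchange factor, had log2 changes of -0.61 and -0.52. Of 24 neurotrophic genes, 6 rose (25%, near the 23.9% of all) and 8 fell (33.3%). Igf1, a growth factor, stood at 27.7, 20.6 and 23.6 CPM in naive and 12.3, 9.34 and 8.01 in SCI (log2 change -1.26 ± 0.17 SE), and Cntf, a Schwann cell cytokine for neurons, fell from 156 ± 4.69 to 91.7 ± 2.01 CPM. Insr, Igf1r and Igf2r, the receptors for insulin and its relatives, all fell, Igf2r from 107 ± 1.59 to 47.1 ± 1.75 CPM (log2 change -1.18 ± 0.06 SE, adjusted p = 3.51e-08 by edgeR).

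Igf2 and Igfbp2, a binding protein, went the other way. Igf2 stood at 68.4, 47.0 and 66.0 CPM in naive, 53.0, 61.4 and 60.6 in sham and 80.5, 78.8 and 106 in SCI, so that naive and sham overlapped and SCI lay above both (log2 change against naive 0.55, SE 0.14, edgeR adjusted p = 0.00497). Igfbp2 stood at 35.8 to 42.3 CPM in naive, 63.7 to 66.1 in sham and 73.5 to 78.7 in SCI. Of the 4 Id factors, inhibitors of basic helix-loop-helix factors, Id1, Id2 and Id3 rose by 0.67, 0.61 and 0.85 and Id4 fell from 36.8 ± 2.64 to 29.4 ± 1.04 CPM. Id2 held 18.1 to 20.9 CPM in naive, 23.8 to 25.4 in sham and 28.9 to 29.5 in SCI. No overlap between any 2 groups was seen for Igfbp2 and Id2, and neither was called between SCI and sham.

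Genes that mark classes of sensory neuron gave no shared direction. Among markers of peptidergic nociceptors 0 of 12 rose and 3 fell (25%, near the 24.6% of all tested genes). Of 19 markers of nonpeptidergic nociceptors and itch neurons 3 rose (15.8%) and 8 fell (42.1%), with Scn11a and Scn10a in the latter count. Mrgprd, a defining receptor of nonpeptidergic neurons, stood at 20.9 ± 2.58 and 18.5 ± 1.16 CPM and was not called. Of 18 markers of low-threshold mechanoreceptors and proprioceptors, 5 rose (27.8%) and 4 fell (22.2%), near the 23.9% and 24.6% of all tested genes. Pvalb, a calcium buffer of proprioceptors, stood at 107, 110 and 104 CPM in naive and 194, 202 and 192 in SCI (log2 change 0.87 ± 0.07 SE, adjusted p = 1.21e-06 by edgeR), with sham at 207 to 240. Etv1, a factor those neurons need, fell from 224 ± 2.09 to 158 ± 5.06 CPM, and Th, which marks touch neurons of low threshold, rose from 1.16 ± 0.241 to 1.93 ± 0.173.

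Motors that carry cargo along the axon were divided by the kind of chain. Of 10 kinesin heavy chains 7 fell and 0 rose, and the heavy chain of cytoplasmic dynein, Dync1h1, stood at 582, 599 and 504 CPM in naive and 269, 227 and 227 in SCI (log2 change -1.22 ± 0.12 SE, adjusted p = 5.94e-06 by edgeR). Kif1b, a carrier of synaptic vesicle precursors, fell from 1625 ± 63.6 to 958 ± 30.1 CPM. Both kinesin light chains, 4 of 5 dynein light chains and 4 of 6 dynactin subunits rose, Dynll1 from 289 ± 4.97 to 465 ± 12.9 CPM and Dctn3 from 91.3 ± 5.56 to 132 ± 6.34. The median of all 28 motor genes was near 0, at -0.0188, and was 0.0112 without naive 2.

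Structural proteins of microtubules went the same 2 ways. All 4 large microtubule-associated proteins fell. Map1b, the most abundant, stood at 6151, 6284 and 6071 CPM in naive and 2634, 2358 and 2290 in SCI, 2.54-fold lower (log2 change -1.34 ± 0.11 SE, adjusted p = 1.87e-06 by edgeR), and Map2 and Map1a had log2 changes of -0.85 and -0.78. Of 4 stathmins 3 rose, of 10 tubulins 2 rose and 0 fell, and of 5 neurofilament and peripherin genes Prph, peripherin, rose and none of the neurofilament genes was called. The call of Prph was lost without naive 1, naive 3 or SCI 3 (adjusted p = 0.0505 to 0.0666), that of Stmn2 without any naive library, SCI 2 or SCI 3 (0.0579 to 0.111) and that of Tubb2b without naive 1 or SCI 3 (0.0531 and 0.0560). Nefl, the light neurofilament chain, stood at 7961 ± 165 and 8454 ± 248 CPM and was not called.

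Cues that steer axons were lower. Of 40 axon guidance genes 20 fell and 3 rose, with a median log2 change of -0.302, and the falls included 5 of 13 semaphorins, 6 of 9 plexins and neuropilins, and 6 of 10 netrins, slits and their receptors. Sema5a, a transmembrane semaphorin, stood at 320, 306 and 316 CPM in naive and 128, 98.7 and 98.3 in SCI (log2 change -1.53 ± 0.10 SE, adjusted p = 2.73e-07 by edgeR). Slit2, a repellent, fell from 88.9 ± 4.91 to 33.3 ± 3.64 CPM. Efnb1, an ephrin, and Sema4a rose by 0.43 and 0.40.

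Satellite glia, which buffer potassium and supply the neuron, had 8 of 19 markers higher and 3 lower. Fabp7, a fatty acid binding protein of these cells, stood at 19.6, 17.6 and 21.1 CPM in naive and 48.4, 52.0 and 36.7 in SCI (log2 change 1.23 ± 0.13 SE, adjusted p = 7.24e-06 by edgeR). Apoe, a lipid carrier that macrophages make as well, stood at 3333, 3407 and 3430 CPM in naive and 6040, 7239 and 6723 in SCI, and Ptgds, prostaglandin D synthase, rose from 940 ± 108 to 1698 ± 128. Cdh19 fell from 218 ± 6.67 to 118 ± 2.61 CPM. Gfap, which satellite glia raise after nerve injury in other models, stood at 43.8 ± 3.10 in naive and 35.4 ± 4.00 in SCI and was not called (log2 change -0.30 ± 0.13 SE, adjusted p = 0.0658 by edgeR).

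Schwann cell myelin genes fell in 19 of 23 cases. Ugt8, an enzyme of myelin galactolipid synthesis, had the most negative log2 change of the list, at 424, 388 and 401 CPM in naive and 175, 142 and 138 in SCI (log2 change -1.41 ± 0.10 SE). Mbp, a major protein of compact myelin, was not called, at 4412 ± 160 and 4259 ± 758 CPM, and S100b, a Schwann cell calcium sensor, was the 1 member that rose (0.29, SE 0.09), a call lost without naive 2 (adjusted p = 0.0715), naive 3 (0.0658) or SCI 1 (0.0787). Of 13 genes of repair or nonmyelinating Schwann cells 2 rose and 6 fell.

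Markers of macrophages and antigen presentation lay higher. Of 23 macrophage genes 11 rose and 4 fell, and their summed level ran from 656 to 812 CPM in naive and from 1000 to 1100 in SCI, with sham at 820 to 1230. Tyrobp, a signalling adaptor, rose from 8.19 ± 0.255 to 14.9 ± 1.90 CPM, and Aif1, a marker of activated macrophages, from 9.76 ± 0.415 to 17.2 ± 1.16 (log2 change 0.82 ± 0.14 SE, adjusted p = 0.000435 by edgeR). The 4 that fell were Lyve1, Cd163, Ptprc and Fcgr2b, of which Lyve1 and Cd163 mark macrophages along vessels. Lyve1 fell from 19.8 ± 1.53 to 13.9 ± 1.10 CPM, while Cd163 lost its call without naive 1, naive 3, SCI 2 or SCI 3 (adjusted p = 0.0525 to 0.0757). Ptprc lost its call without naive 1, SCI 2 or SCI 3 (0.0562 to 0.0884), and Fcgr2b without any naive library, sham 2, SCI 1 or SCI 2 (0.0536 to 0.146).

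MHC class II genes rose in 5 of 6 cases. Cd74, the invariant chain of class II molecules, stood at 207, 152 and 186 CPM in naive and 333, 308 and 339 in SCI (log2 change 0.85 ± 0.11 SE, adjusted p = 5.30e-05 by edgeR), and RT1-Db1 at 38.6, 18.9 and 31.6 in naive and 59.7, 55.7 and 61.9 in SCI. Class I genes and their partners rose in 4 of 8 cases, among them B2m, from 867 ± 16.4 to 1130 ± 69.4 CPM, and Psmb9, a subunit of the immunoproteasome, by 0.66. Sham libraries overlapped those of SCI for these 4 genes. Of 22 interferon-stimulated genes 8 rose, Isg15 from 6.54 ± 0.276 to 10.9 ± 1.81 CPM, and 2 fell. The median log2 change of this list, 0.209, depended on single libraries: it was -7.13e-05 without SCI 3 and 0.361 without SCI 1. Lymphocyte and neutrophil markers rose in 3 of 16 cases, Cd4, Cd2 and Cd8a, and Cd4 is also made by rat macrophages. Their median log2 change was 0.0863, but -0.0965 without SCI 3 and 0.204 without SCI 2. Cd8a, at 0.801 ± 0.173 CPM in SCI, lost its call when any SCI or naive library was left out (adjusted p = 0.0676 to 0.160).

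Of 14 pericyte and smooth muscle genes 6 rose and 2 fell. Cnn1, the contractile protein calponin, stood at 1.77, 1.39 and 1.61 CPM in naive and 4.64, 3.41 and 4.14 in SCI (log2 change 1.37 ± 0.16 SE, adjusted p = 2.53e-05 by edgeR), and Actg2, Acta2 and Tagln rose by 1.34, 0.61 and 0.62. The sham libraries of Cnn1, at 4.78 to 5.47 CPM, and of Actg2, at 6.54 to 7.56, lay above those of SCI. The 2 that fell were Abcc9 and Cspg4, both markers of pericytes. Of 13 endothelial genes 6 rose and 4 fell, Plvap from 9.64 ± 0.986 to 17.7 ± 0.733 CPM and Vwf from 67.5 ± 4.77 to 38.2 ± 5.07.

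Connective tissue genes lay lower. Of 24 fibroblast and collagen genes 15 fell and 0 rose, with a median log2 change of -0.432, and 10 of 14 collagen chains fell. Col1a1, the main chain of fibrillar collagen, stood at 1367, 1226 and 1365 CPM in naive and 757, 632 and 616 in SCI (log2 change -0.98 ± 0.14 SE, adjusted p = 0.000116 by edgeR). Fbn1, fibrillin, fell from 136 ± 26.4 to 49.98 ± 6.42 CPM. Of 14 integrins 8 fell, Itga6 from 364 ± 23.4 to 159 ± 12.8 CPM and Itgav from 77.7 ± 4.07 to 39.4 ± 2.41. Lama1, a laminin chain of basement membranes, was the 1 gene of the integrin and laminin list that rose, at 5.61, 7.24 and 7.999 CPM in naive and 16.4, 17.7 and 13.7 in SCI (log2 change 1.19 ± 0.25 SE).

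Subunits of multiprotein machines rose in most cases. Cytosolic ribosomal proteins and respiratory chain subunits rose in most cases (38 of 40 ribosomal proteins, 25 of 31 subunits of complex I and 31 of 36 of complexes II to V), and the same held for the parts that build mitochondria: 38 of 44 mitochondrial ribosomal proteins rose and 0 fell, and 15 of 19 import genes rose and 1 fell. Mrpl43 of the mitochondrial ribosome stood at 29.1, 33.5 and 31.6 CPM in naive and 58.8, 62.4 and 63.7 in SCI (log2 change 0.97 ± 0.07 SE, adjusted p = 7.75e-07 by edgeR). Timm13, a small chaperone between the mitochondrial membranes, rose from 58.1 ± 2.24 to 107 ± 4.53 CPM, and sham libraries, at 112 to 126, lay above SCI. Of 12 replication-dependent histone genes, whose transcripts lack a poly(A) tail, 3 were tested and 2 of them rose. Their summed level was 112 to 121 CPM in naive, 151 to 157 in SCI and 163 to 182 in sham, and the part of RNA quality in these results was not tested. Single ribosomal protein values may be split among near-identical copies.

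Spliceosome and proteasome genes rose more often than they fell. Of 13 Sm and Lsm proteins, the small rings that bind spliceosomal RNA, 10 rose and 0 fell, Lsm7 from 18.9 ± 1.14 to 30.6 ± 2.07 CPM. The 4 spliceosome genes that fell were Prpf8, Snrnp200, Sf3b1 and Sf3b3, all large scaffold or helicase proteins, Prpf8 from 258 ± 1.52 to 154 ± 0.432 CPM (log2 change -0.75 ± 0.08 SE). In the proteasome 11 of 14 core subunits rose and 0 fell, against 10 of 18 that rose and 3 that fell in the regulatory cap. Psmb6, a catalytic core subunit, rose from 104 ± 4.67 to 158 ± 5.63 CPM, whereas Psmd1, the largest cap subunit, fell from 322 ± 1.49 to 256 ± 4.73. The other falls in the cap were Psmd2, not called without naive 1 (adjusted p = 0.0561), and Psmc6, not called without any single naive or SCI library except naive 3 (0.0721 to 0.147). Ubiquitin ligases and deubiquitinases, taken as 1 list, fell in 24 of 34 cases and rose in 5.

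**Figure D4:**
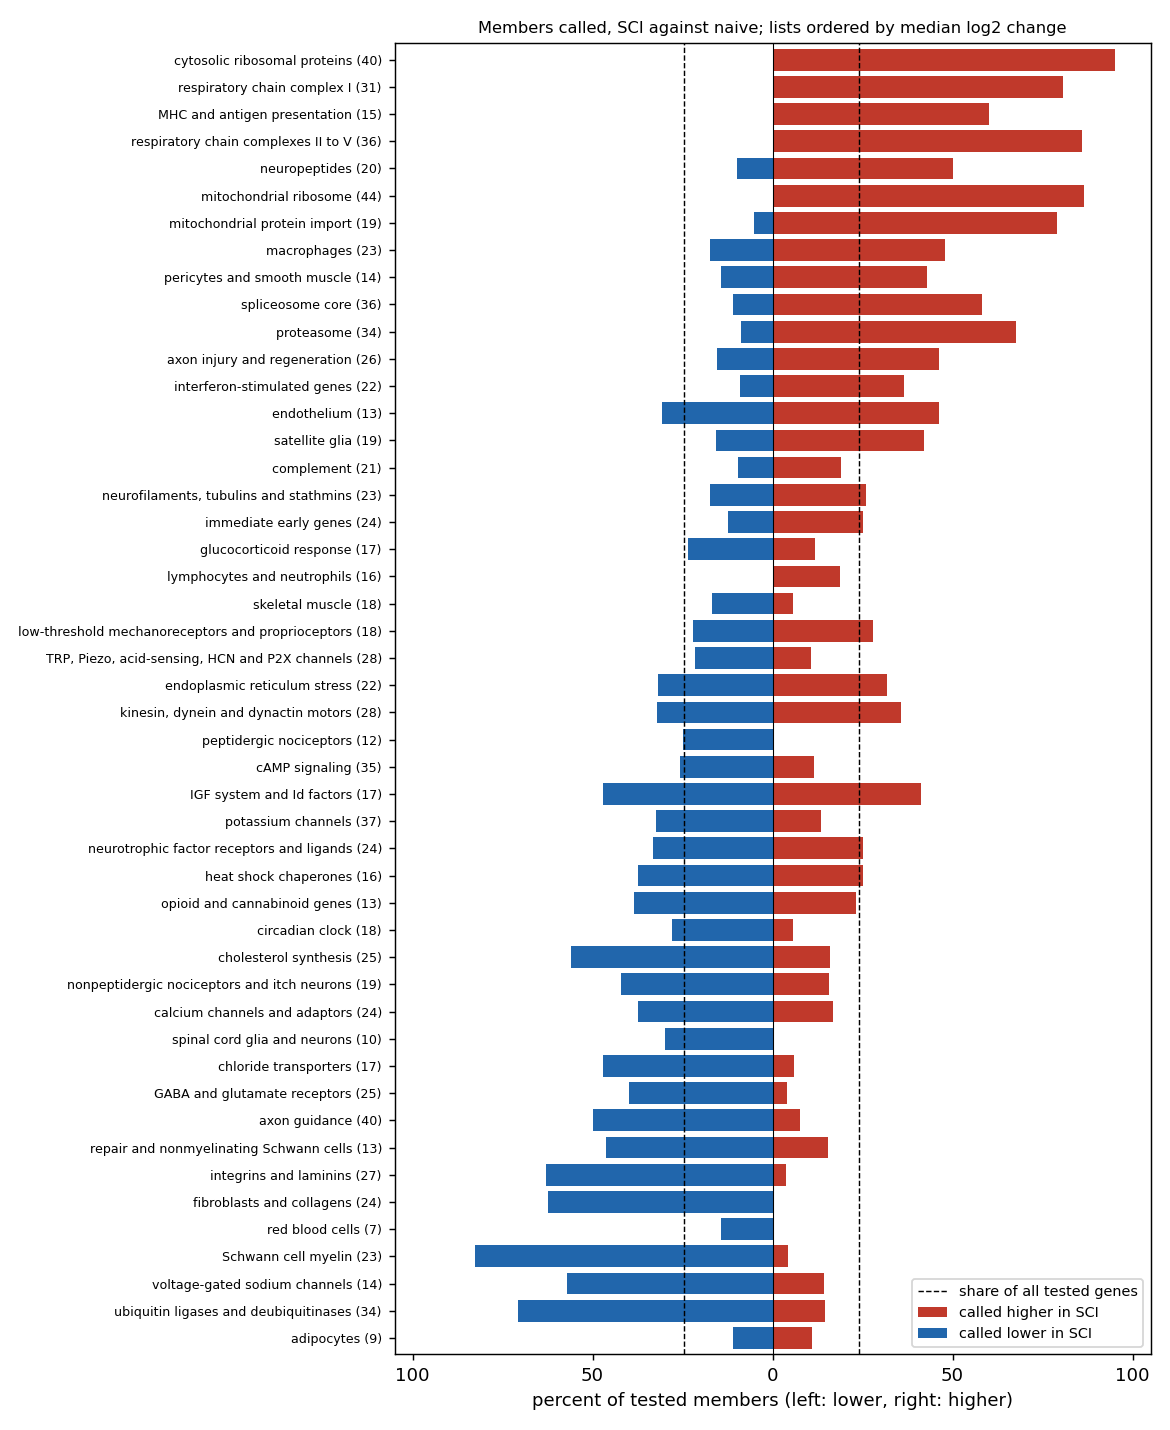
Percent of tested members of each gene list that were called lower (left, blue) or higher (right, red) in SCI than in naive, with the number tested in brackets and the lists ordered by median log2 change. Dashed lines mark the shares of all tested genes, 24.6% lower and 23.9% higher. Cytosolic ribosomal proteins stand at the top, and myelin, sodium channel, ubiquitin and adipocyte lists at the bottom.

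Stress and clock lists held genes of both directions. Of 22 endoplasmic reticulum stress genes 7 rose and 7 fell: Ddit3, a stress-induced transcription factor, rose from 26.9 ± 2.04 to 38.8 ± 1.05 CPM, and Canx, Dnajb9 and Ern1 had log2 changes of -0.54, -0.51 and -0.64. Of 16 heat shock genes 4 rose (25%) and 6 fell (37.5%), and of 17 glucocorticoid response genes 2 rose (11.8%) and 4 fell (23.5%). Several of these shares are near those of all tested genes, 23.9% higher and 24.6% lower. Among 18 clock genes 5 fell (27.8%, also near that share) and 1 rose (5.56%). Clock fell from 61.5 ± 0.502 to 35.7 ± 3.62 CPM and its partner Arntl rose from 13.2 ± 0.546 to 17.1 ± 0.878. Cholesterol synthesis genes fell in 14 of 25 cases and rose in 4.

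Skeletal muscle genes summed to 99.5 to 144 CPM in naive and 99.8 to 143 in SCI, with 194 to 213 in sham, and of 18 tested 1 rose and 3 fell, Myh1, Atp2a1 and Ryr1. Each of the 3 lost its call without SCI 1 (adjusted p = 0.0698, 0.100 and 0.0996) and without 2 or 3 other single libraries. Red blood cell genes summed to 858 to 1190 CPM in naive and 526 to 1090 in SCI, and 1 of 7, Alas2, fell, a call lost without naive 1 (adjusted p = 0.106), SCI 1 (0.0915) or SCI 2 (0.0708). SCI 3 stood apart from SCI 1 and SCI 2 for this list, and without it 6 of the 7 genes fell, with a median log2 change of -0.857 in place of -0.433. The spinal cord list, with 10 of 17 members tested and Olig2, Opalin, Slc1a2 and Chat among those too low to test, summed to 263 to 280 CPM in naive and 178 to 190 in SCI, most of it from Slc17a6, a glutamate transporter that sensory neurons use as well, which fell from 178 ± 4.44 to 112 ± 1.23. Slc5a7, the choline transporter of cholinergic neurons, and Mobp, a protein of oligodendrocyte myelin, had log2 changes of -1.22 and -1.34 and stood in SCI at 8.28 ± 0.313 and 0.428 ± 0.0857 CPM. The median of the adipocyte list was -0.592, but 0.191 without naive 3. The part of any of these tissues in the results was not tested.

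Among long noncoding genes falls outnumbered rises. Of 1455 tested noncoding genes 386 fell (26.5%) and 145 rose (9.97%), with a median log2 change of -0.146, whereas of 15172 protein-coding genes 3705 fell (24.4%) and 3823 rose (25.2%), with a median of 0.0201. At 2-fold or more, 205 of the 1455 noncoding genes fell and 35 rose, against 367 and 150 of the 15172 protein-coding genes. By that measure 3.44% of all tested genes fell and 1.11% rose. At 8-fold or more, 16 of the 1455 noncoding genes fell and 0 rose. Of the 15172 protein-coding genes, 2 fell and 7 rose by as much. The part of low levels in these large changes was not tested. Noncoding genes held 0.880 to 0.918% of counts in the naive libraries, 0.729 to 0.745% in SCI and 0.678 to 0.750% in sham. Of 15 named RNAs that were listed, 4 were found in the table and tested, and Miat and Snhg11, both neuronal, fell, Snhg11 from 126 ± 16.2 to 96.2 ± 8.58 CPM. Miat stood at 431, 562 and 507 CPM in naive and 390, 412 and 337 in SCI, and its call was lost without naive 2 (adjusted p = 0.0735) or SCI 3 (0.0706).

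**Figure D5:**
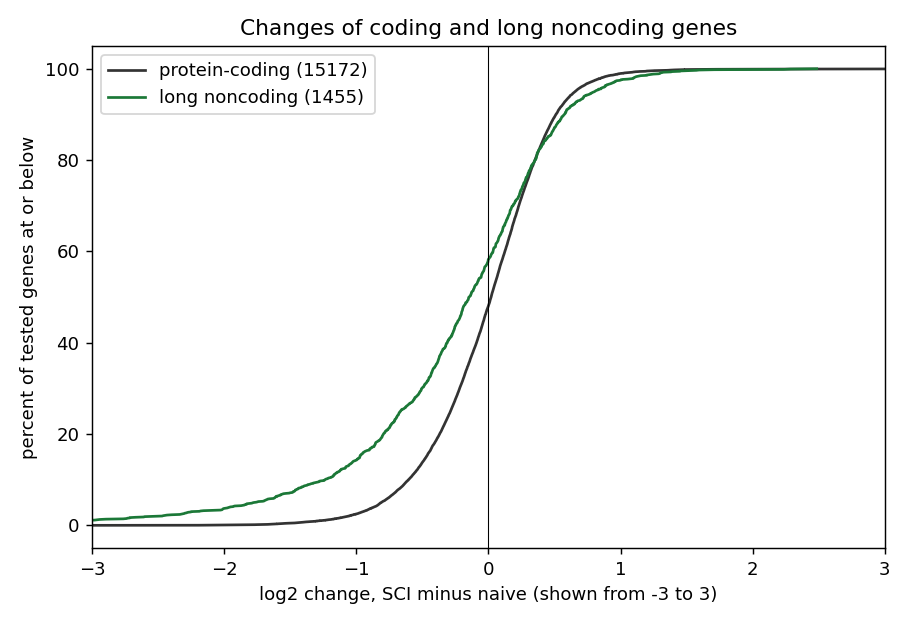
Percent of tested genes (y axis) at or below a given log2 change between SCI and naive ganglia (x axis, shown from -3 to 3), for 15172 protein-coding genes in black and 1455 long noncoding genes in green. The green curve lies above the black curve throughout the falls and slightly below it among the larger rises.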

How the data were processed

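Gene counts from 9 rat DRG libraries were used as the authors deposited them, as whole-number counts per Ensembl gene. FastQC, Trimmomatic, TopHat2, HTSeq and DESeq2 are named per the submitters' processing notes, without versions, and the genome build is not given in the sources used here. Paired-end libraries were made with a TruSeq V2 kit per the labels' protocols.

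Genes were kept with filterByExpr by group (16627 of 30446), scaled by TMM and tested with edgeR 4.0.16 (R 4.3.3) quasi-likelihood tests on all 9 libraries with 3 group means and Benjamini-Hochberg adjustment over all tested genes, a gene being called at an adjusted p under 0.05. CPM are counts relative to the TMM-scaled library size, and log2 CPM for principal components used a prior count of 2. Total counts ran from 16724878 to 32060538 per library. All samples were grouped by their labels. Alternatives were other scalings, filters, a replicate block, fewer libraries, limma 3.58.1 (voom), DESeq2 1.42.0, a stricter threshold and glmTreat. On simulated data with 200 changed genes in each of 3 runs, the test found 22.7% of 1.25-fold, 66.0% of 1.5-fold, 85.3% of 2-fold and 99.3% of 4-fold changes between SCI and naive, over 16434 to 16455 genes. Calls on unchanged genes averaged 9 per run. The data held 8059 called genes, far more than were changed in the simulation, so these rates need not hold for this comparison.

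Named genes were the 12 with the largest change in each direction among called genes with libraries that did not overlap, a mean of at least 1 CPM and a proper symbol, and, for each list, up to 4 members with the smallest p in each direction and defining members of neuronal lists. Nts, Nmu, Sox11, Gap43, Cacnb4, Igf1r, Id4, Stmn2, Gfap and Mbp were named after their values were seen. Subunit roles within lists were divided after the values were seen. The comparison, the lists and their members were chosen with earlier results of these data known.
Values of a few members of the lists are not reported here.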

Additional observations from a re-analysis of the deposited data

How the results depend on the processing

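Counts of genes higher and lower in SCI than naive were within 1.5 times of the reported 3968 and 4091 under RLE or upper-quartile scaling, no filter, a strict filter, DESeq2, limma-voom, a fit of only the compared groups and an adjusted p under 0.01. Against a 1.2-fold minimum (glmTreat) they were 1805 and 2325. Leaving out each library in turn gave 3219 to 4591 higher and 3388 to 4650 lower. For SCI against sham, the reported 0 became 11 without the low-count filter, 9 with DESeq2 and 0 to 22 when single libraries were left out, 22 being without sham 3; the cause was not tested. With the replicate block, 3852 genes were higher and 3996 lower. Deviations from the group mean of same-numbered naive and SCI libraries had correlations of 0.00736, 0.0671 and -0.0184. Those of differently numbered libraries ran from -0.0635 to 0.0578. Such values do not settle whether the numbers pair the samples. Scalings gave a median log2 change of all genes of 0.00695 to 0.0284. Of 7062 values of 374 genes under 19 alternatives, 6697 kept their side of the threshold, 328 lost their call, 37 gained one and 0 changed sign while called in either fit. Genes near 0 that were never called, such as Avil, could change sign and count among the 6697. The protein length correction was not run, since it needs protein lengths. Depth limits changes of genes under about 1 CPM, which is 16.7 to 32.1 counts per library.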
